A study of Pimephales promelas with 28 samples.

Results

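A set of 49 transcripts in fathead minnow liver was either bright or dim on single arrays, with an empty stretch of signal in between. Each is 1 probe of an Agilent one-colour array, on which Cy3-labelled RNA binds to short spotted probes and the fluorescence of a spot stands for the amount of RNA bound. The members were chosen on the signal itself. For each of 15208 probes the log2 processed signal, less the array's 75th percentile, was sorted over 28 arrays, and a probe was a member if 2 neighbouring values lay 2 log2 units or more apart. There had to be 3 or more arrays on each side of that gap, and the scanner software had to mark the spot as well above background on every array above it. The 200 probes of highest median in control liver were left out, of which 0 met the same rule. The members were 0.322% of the probes, while 88 probes had such a gap whatever the background mark. Below, every level is a log2 signal relative to the array's 75th percentile, so that 0 stands for that percentile, and "above" or "below" means above or below the gap of that probe.

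The arrays came from livers of sexually regressed female Pimephales promelas, a small freshwater fish of toxicity testing, per the labels. Exposed fish had received phenanthrene at a labelled 29 ng/L for 24 h (5 arrays), 48 h (5 arrays) or 72 h (4 arrays). Control fish had a labelled 0 ng/L and no agent, with 4 arrays taken after 24 h and 5 each after 48 h and 72 h. All groups share sex, reproductive state and tissue, and the series' title gives its purpose as following liver expression over the exposure. Phenanthrene is a polycyclic aromatic hydrocarbon of petroleum and combustion products. The liver is the main organ in which fish metabolise such compounds, and it also makes most plasma proteins and, in breeding females, yolk precursors. The labels do not say that each array had its own fish, so a p-value here covers the spread among arrays, which may be technical. In whole liver, fewer cells of a type and less RNA per cell cannot be told apart.

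The probes carry no gene names. Of the members, 40 have identifiers of assembled sequence contigs (78.0% of all probes do), 8 have gi numbers and 1 has a clone name. None of the identifiers of the array matched the reference table of 64593 genes, so the labelled tissue could not be set against marker genes, no gene list could be applied and no function is given for any member. Contig identifiers consist of a cluster number and a contig number (FJU.1958.C7), and the members came from 39 clusters. Members are called below by the last part of the probe name, so that AF_116343 stands for UF_Ppr_AF_116343.

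Array quality was uneven among exposed livers. Bright-corner control spots had a log2 signal of 17.88 for exposed 48 h replicate 1 and 19.01 for exposed 72 h replicate 4, while control arrays had 10.08 to 11.95. Non-uniform spots numbered 201 and 498 on that pair of arrays, and at most 13 on a control array. Exposed 24 h replicate 3 had 5127 probes well above background, while control arrays had 8722 to 12180. Over all arrays the 75th percentile of processed signal lay between 134.5 and 1253 intensity units. The 28 arrays lay on 5 slides scanned on 2 days, and the 8 arrays of the first day were all of 48 h. Results without the 3 exposed arrays named here are given where they differ.

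The gaps of the members ran from 2.04 to 5.61 log2 units with a median of 2.87, and the spot just below the gap was not well above background in 16 members. With such spots raised to the lowest level well above background of their array, the median step between neighbouring arrays was at least 4.65-fold and the highest 38.0-fold. A gap of 3 or more was found in 21 members and of 4 or more in 8. Just inside the threshold stood AF_113032 with a gap of 2.04 and AF_100045 with 2.07, and just outside it UF_Ppr_AF_116966 with 1.9968 and UF_Ppr_AM_120793 with 1.96. With spots raised as above, the gaps of AF_113032 and AF_100045 were -0.008 and 0.02. For both, the highest array below the gap was exposed 24 h replicate 3, where the spot was not well above background. The pooled SD within the 6 groups had a median of 2.76 over the members, from 1.53 to 4.68, against 0.914 over all probes. These values follow from how the members were chosen and carry no test.

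**Figure D1:**
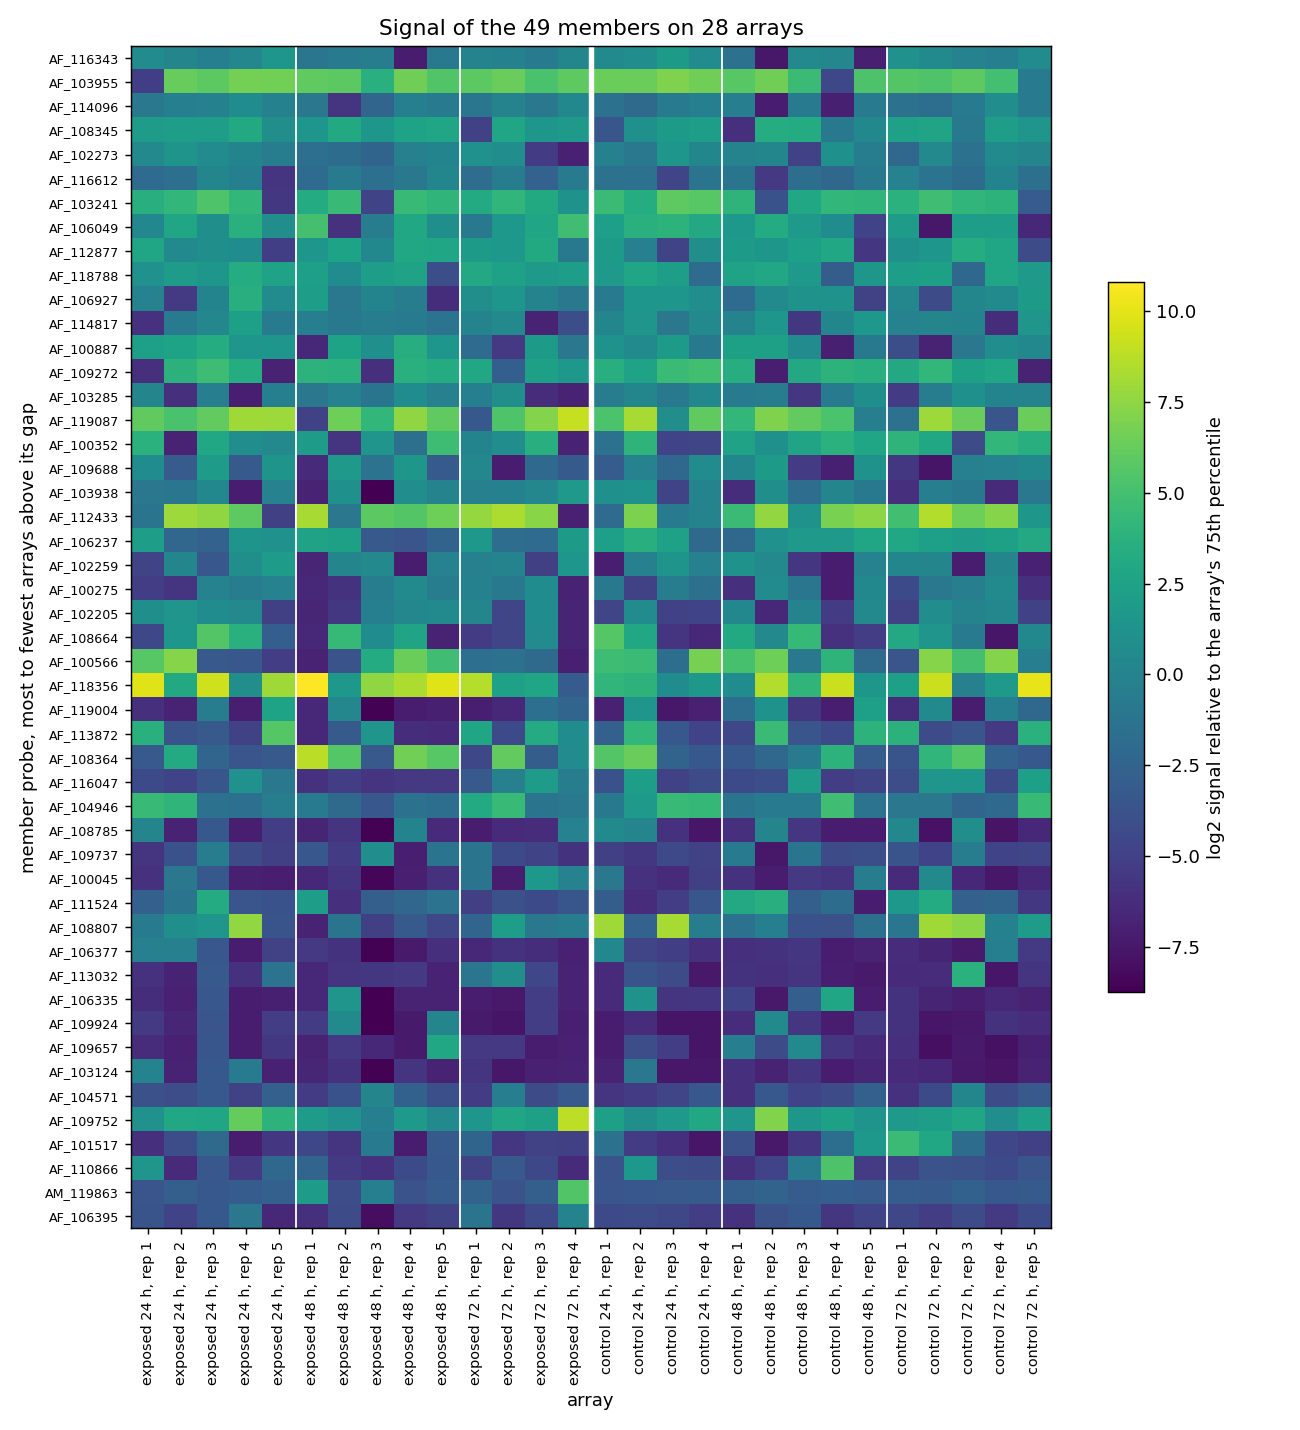
Signal of the 49 members (rows) on 28 arrays (columns), as log2 signal relative to the array's 75th percentile (colour scale). Exposed arrays stand left of the thick white line and control arrays right of it, each by time; rows run from 25 to 3 arrays above the gap. Bright and dim cells occur on both sides of the thick line in most rows, and no 2 rows divide the arrays alike.

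What lay below a gap differed between members. For 11 members no array below the gap was well above background, for 3 every such array was, and for 35 some were. Of the 669 spots below a gap, 274 (41.0%) were well above background. Over all members 703 of 1372 spots (51.2%) lay above the gap, 1 spot was marked non-uniform or as a population outlier, and 0 were saturated. A dim spot at background gives only an upper bound, and that bound differed between arrays: the lowest probe well above background had a level of -1.26 for exposed 24 h replicate 3, the highest, and of -6.43 for exposed 48 h replicate 3, the lowest, with a median of -4.94. With each spot not well above background placed at that level of its array or at its own if higher, the gap was above 0 in 48 members, 1 or more in 39 and 2 or more in 32, with a median of 2.22. For 9 members the highest array below the gap was exposed 24 h replicate 3, the array with the fewest probes well above background.

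AF_116343 (FJU.1081.C1) had the widest gap as measured. Its level in exposed livers was 0.69, 0.14, -0.34, 0.30 and 1.51 on the 24 h arrays, -1.10, -0.64, -0.42, -7.27 and -0.85 on the 48 h arrays and -0.04, -0.18, -0.65 and 0.26 on the 72 h arrays. Its level in control livers was 0.64, 0.82, 1.89 and 0.72 on the 24 h arrays, -1.41, -7.43, 0.46, 0.33 and -7.03 on the 48 h arrays and 1.16, 0.58, -0.04, -0.28 and 0.69 on the 72 h arrays. Only exposed 48 h replicate 4 and control 48 h replicates 2 and 5 were dim, and none of these 3 spots was well above background. The gap of 5.61 was at least 11.7-fold when these spots were placed at the lowest level well above background of their arrays, and by that bound 5 other members had a wider gap, AF_108807 first. All 3 dim arrays belonged to the 8 arrays of the first scan day, and the same held for AF_114096, which was dim on exposed 48 h replicate 2 and control 48 h replicates 2 and 4. The other pair of 48 h arrays, exposed replicate 5 and control replicate 1, was scanned on the second day and was bright for both probes, at -0.85 and -1.41 for AF_116343 and at -0.69 and -0.39 for AF_114096. The first day held 48 h arrays alone, so time and scan day are confounded in part. The 3 probes most like AF_116343 over 28 arrays were UF_Ppr_AF_103298, UF_Ppr_AF_118553 and UF_Ppr_AF_114780, with Pearson's r of 0.61, 0.59 and 0.58. They were the highest of 15208 probes, among which such an r can arise without any relation.

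AF_108807 (FJU.118.C1) was bright on 5 arrays. Exposed livers had -0.63, 0.98, 1.46, 7.60 and -3.68 on the 24 h arrays, -6.79, -1.25, -5.04, -3.28 and -4.61 on the 48 h arrays and -2.35, 2.16, -0.92 and -0.48 on the 72 h arrays. Control livers had 8.01, -2.63, 8.20 and -0.56 on the 24 h arrays, -1.41, -0.34, -3.83, -3.86 and -1.56 on the 48 h arrays and -1.04, 7.96, 7.41, -0.17 and 2.09 on the 72 h arrays. The bright arrays were exposed 24 h replicate 4, control 24 h replicates 1 and 3, and control 72 h replicates 2 and 3, all between 7.41 and 8.20. The other 23 arrays ran from -6.79 to 2.16, and 20 of them were well above background, so that the gap of 5.25 lay between measured signals.

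**Figure D2:**
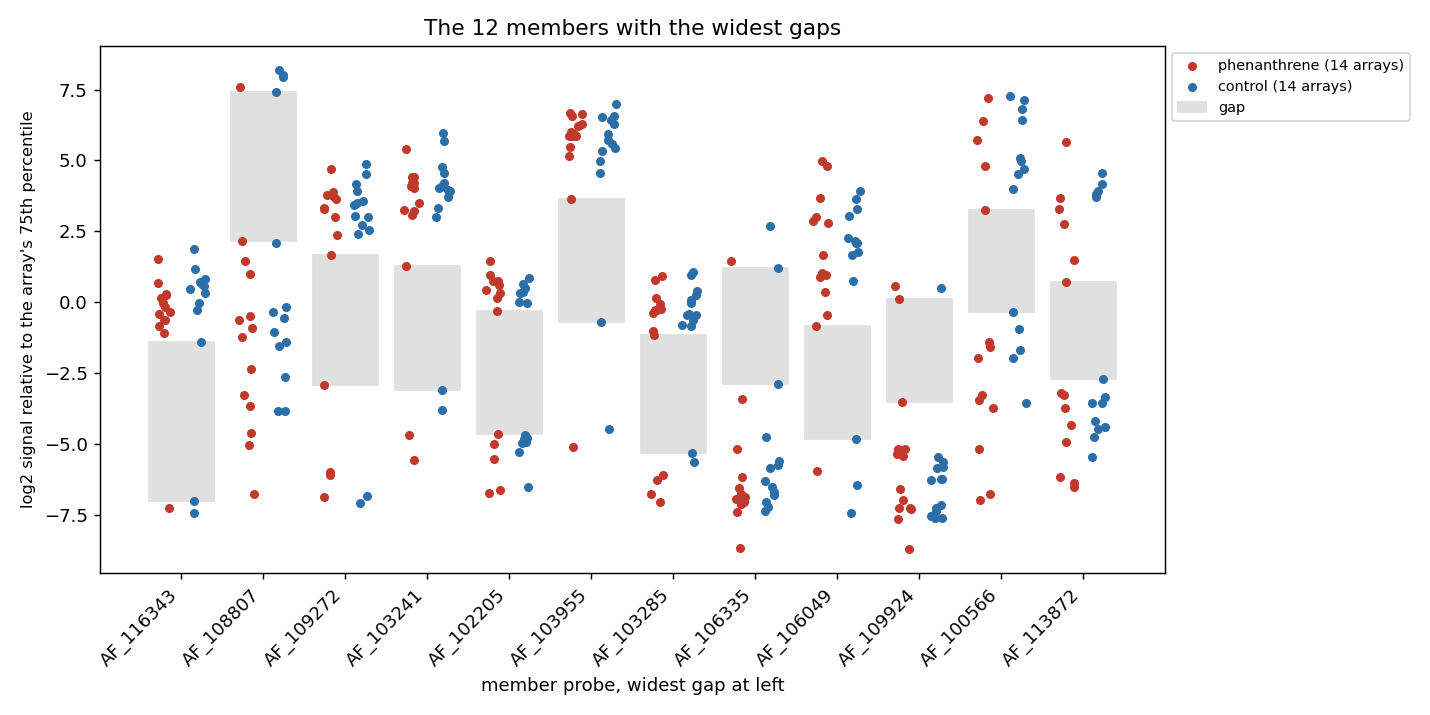
The 12 members with the widest gaps, with one point per array (log2 signal relative to the array's 75th percentile): phenanthrene in red at left and control in blue at right of each position, 14 arrays each, and the gap in grey. For each of these members both colours appear above and below the gap.

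Of the other members with wide gaps, AF_103955 (FJU.104.C1) was dim on exposed 24 h replicate 1 at -5.11, control 48 h replicate 4 at -4.48 and control 72 h replicate 5 at -0.70, and stood between 3.63 and 7.01 elsewhere. AF_103285 (FJU.9010.C1) was dim on 4 exposed and 2 control arrays, between -7.05 and -5.32, with 22 arrays between -1.15 and 1.05. AF_106049 (FJU.6986.C1) was dim on exposed 48 h replicate 2 at -5.96, control 48 h replicate 5 at -4.83, control 72 h replicate 2 at -7.46 and control 72 h replicate 5 at -6.47. Exposed and control arrays stood on both sides in each of these members. AF_106335 (gi_73572952) was bright on 3 arrays, at 1.46 on exposed 48 h replicate 2, 1.19 on control 24 h replicate 2 and 2.70 on control 48 h replicate 4, against -8.68 to -2.90 on the others. AF_109924 (FJU.3706.C1) had 0.58 for exposed 48 h replicate 2, 0.12 for exposed 48 h replicate 5 and 0.50 for control 48 h replicate 2, and no other array was well above background. Its gap of 3.66 was at least 2.61-fold by the lowest level well above background.

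The number of arrays above the gap ranged over the whole span the rule allows. In 17 members 3 to 8 arrays were above it, in 13 members 9 to 19, and in 19 members 20 to 25. The ends of the span were the most filled, with 10 members at 3 arrays and 6 at 25. No 2 members had the same arrays above the gap, so there were 49 different divisions. Within the labelled groups, a member was divided in 2 to 6 of the 6 groups with a median of 4, and 9 members had bright and dim arrays in every group. The smaller side lay at a single time in 5 members and on a single slide in 0.

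Exposed and control livers held both sides of the gap in 46 members. The number of bright arrays differed between the 14 exposed and the 14 control arrays by a median of 1, and by 2 or fewer in 42 members. The widest difference was 5 arrays, for AF_106237 (FJU.4715.C2), with 7 exposed and 12 control arrays above. In 3 members, chosen for mention after their values were seen, every bright array belonged to 1 agent. Each of them had 3 bright arrays, the fewest the rule allows, as did 10 members in all, and 6 members had 25. A side of 3 arrays can fall within 1 agent by the draw of arrays alone, so this count carries no weight. AM_119863 (gi_73441936) had 2.05 for exposed 48 h replicate 1, -0.31 for exposed 48 h replicate 3 and 5.45 for exposed 72 h replicate 4, while all others lay within -4.12 to -2.49. The first and last of these are the arrays with the raised bright corners and the most non-uniform spots, and the part of that in its level was not tested. AF_106395 (gi_72446023) was bright on exposed 24 h replicate 4 at -1.01, exposed 72 h replicate 1 at -1.20 and exposed 72 h replicate 4 at -0.01, again including 1 array with a raised bright corner. Its highest array below the gap, exposed 24 h replicate 3, was not well above background. With that spot at the lowest level well above background of its array, the gap of AF_106395 was only 0.06. AF_101517 (FJU_SB_30.480.C1) was bright on control arrays alone, at 1.66 on 48 h replicate 5, 4.58 on 72 h replicate 1 and 2.95 on 72 h replicate 2. In each of these members 11 arrays of the same agent were dim.

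**Figure D3:**
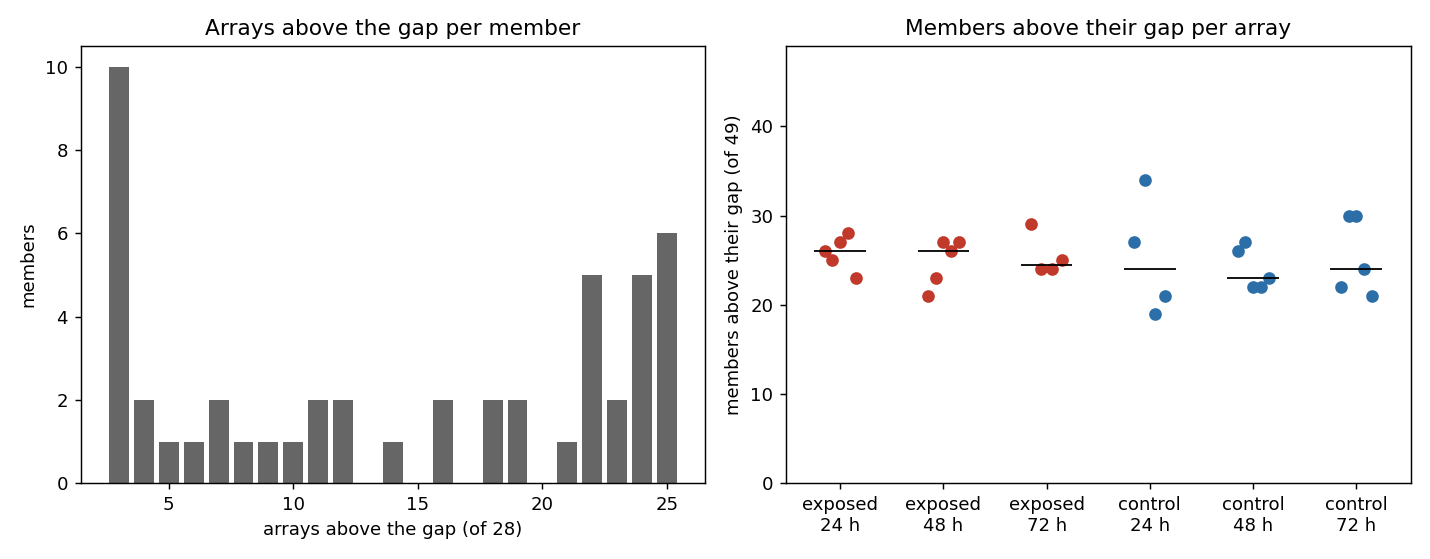
Left, number of members (bars) by how many of the 28 arrays lay above their gap. Right, number of the 49 members above their gap on each array (points), by agent and time, with the group median as a line: exposed arrays had 21 to 29 and control arrays 19 to 34.

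No array was bright or dim throughout. Exposed arrays had 21 to 29 members above their gap, with a mean of 25.4 ± 2.2 (SD, n = 14), and control arrays 19 to 34, with a mean of 24.9 ± 4.3 (SD, n = 14). The highest number was on control 24 h replicate 2 and the lowest on control 24 h replicate 3, which share agent and time. By slide the median was 26.5, 27, 22.5, 24.5 and 24 for slides 1 to 5, and by scan day it was 23 for the first and 25.5 for the second. The 378 pairs of arrays were on the same side of the gap for 24 to 42 members, with a median of 33. A member with few arrays on 1 side puts most pairs of arrays on the same side. That median is therefore no measure of likeness among arrays.

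Members varied mostly apart from each other. Over the 1176 pairs of members, Pearson's r across the 28 arrays ran from -0.65 to 0.85 with a median of 0.01, and 95.5% of pairs lay within 0.4 of 0. These correlations are descriptions over arrays that share scaling and slides, and the pairs in the next paragraphs were singled out after their values were seen.

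The closest pair was AF_109272 (FJU.1958.C7) and AF_103241 (FJU.3110.C1), with r = 0.85 and the same side of the gap on 26 of 28 arrays. They were above their gaps on 22 and 24 arrays, which by itself sets many arrays on the same side. In exposed livers AF_109272 stood at -6.10, 3.80, 4.72, 3.32 and -6.88 on the 24 h arrays, 3.88, 3.75, -6.000, 3.63 and 3.27 on the 48 h arrays and 2.997, -2.91, 2.37 and 1.65 on the 72 h arrays. In control livers it stood at 3.57, 2.53, 4.54 and 4.87 on the 24 h arrays, 3.42, -7.11, 3.05, 3.92 and 3.50 on the 48 h arrays and 3.02, 4.15, 2.39, 2.73 and -6.84 on the 72 h arrays. Its 6 dim arrays were 4 exposed and 2 control ones. AF_103241 in exposed livers was at 3.50, 4.22, 5.40, 4.22 and -5.57 on the 24 h arrays, 3.26, 4.41, -4.70, 4.41 and 4.02 on the 48 h arrays and 3.22, 4.11, 3.09 and 1.27 on the 72 h arrays. In control livers AF_103241 was at 4.56, 3.31, 5.96 and 5.70 on the 24 h arrays, 3.96, -3.82, 2.99, 4.19 and 4.03 on the 48 h arrays and 3.72, 4.76, 4.11, 3.91 and -3.11 on the 72 h arrays. Both probes were dim on exposed 24 h replicate 5, exposed 48 h replicate 3, control 48 h replicate 2 and control 72 h replicate 5, and AF_109272 alone was dim on exposed 24 h replicate 1 and exposed 72 h replicate 2. Where both were bright they also varied together by smaller steps, as the plot of probe pairs shows.

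AF_113872 (FJU.1958.C5) has the cluster number of AF_109272 and ran against it, with r = -0.60 and opposite sides on 21 of 28 arrays. AF_109272 was above its gap on 22 arrays and AF_113872 on 11, which by itself sets some arrays on opposite sides. In exposed livers AF_113872 was at 3.69, -3.76, -3.29, -4.94 and 5.64 on the 24 h arrays, -6.52, -3.20, 1.48, -6.16 and -6.39 on the 48 h arrays and 2.77, -4.34, 3.28 and 0.72 on the 72 h arrays. In control livers AF_113872 was at -2.73, 4.16, -3.36 and -4.77 on the 24 h arrays, -4.49, 4.54, -3.56, -4.43 and 3.91 on the 48 h arrays and 3.80, -4.21, -3.56, -5.47 and 3.72 on the 72 h arrays. On 5 of the 6 arrays where AF_109272 was dim, AF_113872 was bright; the exception was exposed 72 h replicate 2, where both were dim. The other 3 probes of this cluster, FJU.1958.C3, FJU.1958.C15 and FJU.1958.C10, had r of -0.11, 0.11 and -0.16 with AF_109272. They were well above background on 1, 4 and 27 arrays, so the r of FJU.1958.C3 and FJU.1958.C15 rests mostly on signals at background.

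AF_102205 (FJU.2455.C1) was divided 16 to 12. Its exposed livers had 0.96, 1.44, 0.74, 0.42 and -5.02 on the 24 h arrays, -6.62, -5.52, -0.32, 0.32 and 0.60 on the 48 h arrays and 0.15, -4.65, 0.73 and -6.74 on the 72 h arrays. Its control livers had -4.68, 0.65, -4.97 and -4.80 on the 24 h arrays, 0.34, -6.51, -0.03, -5.28 and 0.48 on the 48 h arrays and -4.85, 0.86, -0.01, 0.31 and -4.95 on the 72 h arrays. The bright arrays lay within -0.32 to 1.44 and the dim ones within -6.74 to -4.65, and each of the 6 groups held both. The other contig of that cluster, UF_Ppr_AF_104297 (FJU.2455.C2), is no member. It varied in the opposite sense, with r = -0.62 and levels from -4.86 to 2.22.

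In all, 10 members shared a cluster number with another probe, in 18 distinct pairings. Of these 14 had r within 0.3 of 0, 2 were below -0.5, both described above, and 1 was above 0.5. That 1 was AF_112877 (FJU.7943.C3) with UF_Ppr_AF_106170 (FJU.7943.C1), at r = 0.62. The 14 include all pairings with FJU.1958.C3, FJU.1958.C15 and FJU.3110.C2. These probes were well above background on 1, 4 and 2 arrays, so a low r there says little about the RNA. AF_102259 and UF_Ppr_AM_120084 carry the same contig name (FJU.1744.C1), and their r was -0.06.

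**Figure D4:**
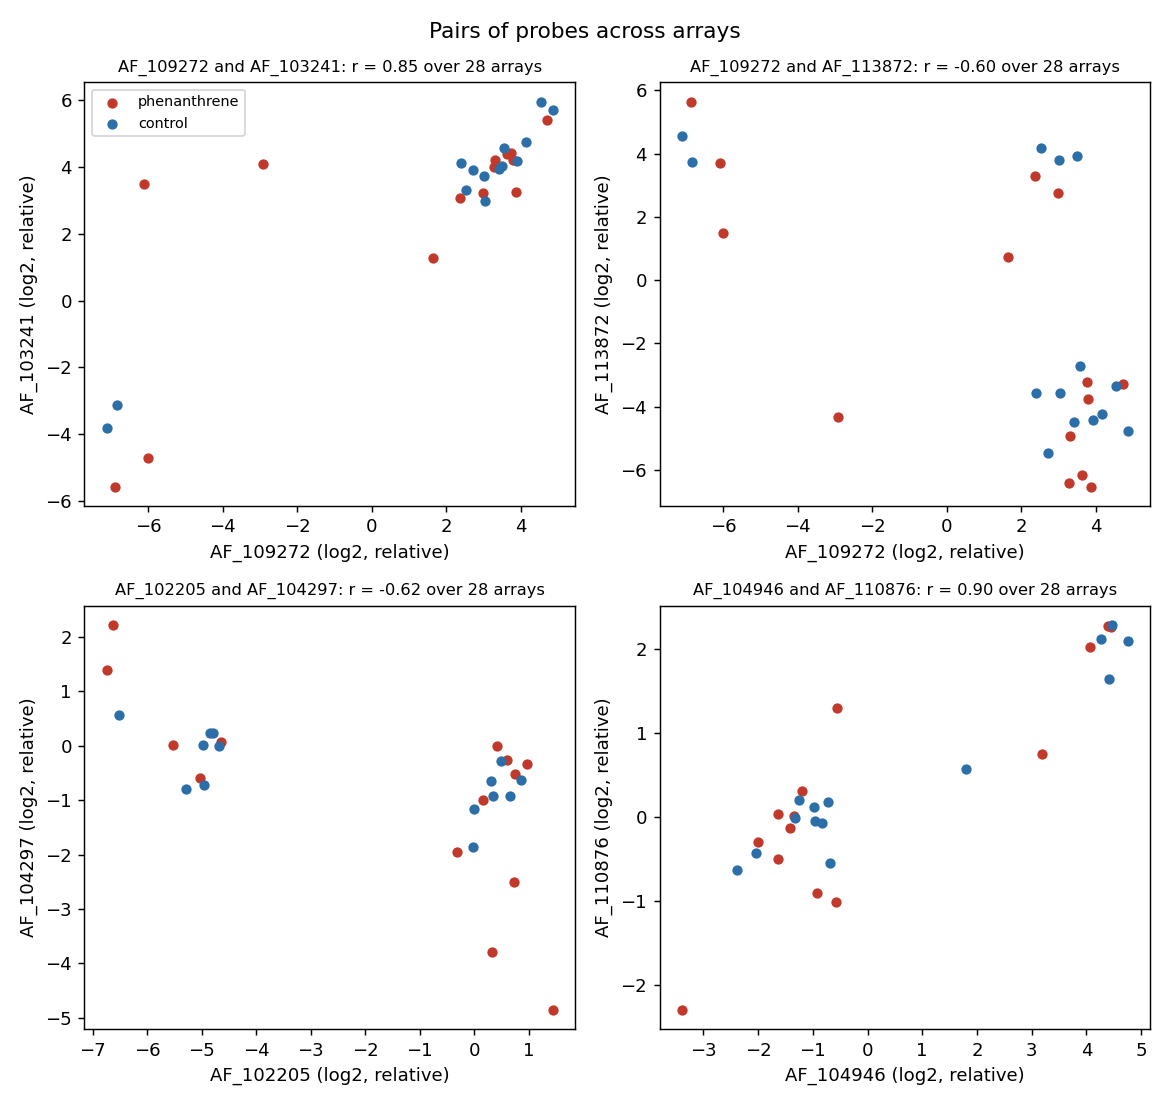
Log2 signal relative to the array's 75th percentile for 4 pairs of probes, one point per array, phenanthrene in red and control in blue. AF_109272 and AF_103241 lie along a rising line (r = 0.85), AF_109272 and AF_113872 of one cluster lie mostly in opposite corners (r = -0.60), AF_102205 and AF_104297 slope down (r = -0.62), and AF_104946 and AF_110876 slope up (r = 0.90).

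A second close pair of members was AF_109688 (FJU.11986.C2) and AF_100887 (FJU.13343.C1), on the same side on 27 of 28 arrays with r = 0.74. They were above their gaps on 22 and 23 arrays, so many arrays had to lie on the same side whatever their relation. AF_100887 was dim on exposed 48 h replicate 1 at -6.46, exposed 72 h replicate 2 at -5.52, control 48 h replicate 4 at -7.00, control 72 h replicate 1 at -4.01 and control 72 h replicate 2 at -6.86. AF_109688 was dim on the same 5 arrays and on control 48 h replicate 3 at -5.36. UF_Ppr_AF_113841 (FJU.13499.C1), no member, followed AF_100887 with r = 0.91. The most opposed members were AF_103955 and AF_110866 (FJU.592.C3), with r = -0.65 and opposite sides on 26 arrays. AF_103955 was above its gap on 25 arrays and AF_110866 on 3, so most arrays had to lie on opposite sides whatever their relation. AF_110866 was bright on exposed 24 h replicate 1 at 1.47, control 24 h replicate 2 at 1.69 and control 48 h replicate 4 at 5.31, and the first and last of these are arrays on which AF_103955 was dim.

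Over the whole table, the probe most like a member had r from 0.61 to 0.95 with a median of 0.69, and reached 0.8 or more for 12 members. In 10 cases that probe kept the member's division of the arrays without an overlap, and in 0 cases with a gap of 2 or more. Each such r is the highest over 15208 probes, among which a high r can arise without any relation. For AF_109924, AF_103124 and AF_113032 the most alike probe was well above background on 4, 1 and 4 arrays. Their r of 0.87, 0.81 and 0.88 thus rests mostly on signals at background. AF_109272 and AF_103241 were each the probe most like the other. AF_104946 (gi_72696221) and UF_Ppr_AF_110876 (FJU_SB_30.227.C1) had r = 0.90. AF_104946 in exposed livers was at 4.40, 4.07, -1.34, -1.63 and -0.56 on the 24 h arrays, -0.58, -1.99, -3.39, -1.41 and -1.64 on the 48 h arrays and 3.18, 4.44, -1.20 and -0.92 on the 72 h arrays, and in control livers at -0.83, 1.80, 4.47 and 4.26 on the 24 h arrays, -1.25, -0.72, -0.68, 4.76 and -1.33 on the 48 h arrays and -0.96, -0.98, -2.38, -2.04 and 4.41 on the 72 h arrays. Its 9 bright arrays, 4 exposed and 5 control, stood at 1.80 to 4.76, while AF_110876 ranged over all arrays only from -2.29 to 2.29. AM_119863 had the highest likeness of all, r = 0.95 with UF_Ppr_AF_109164 (FJU.2624.C1). That probe had 6.77 for exposed 48 h replicate 1 and 9.17 for exposed 72 h replicate 4, the arrays with raised bright corners.

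Position on the array was also compared. The 479 spots next to a member's spot had a median r of 0.05 with it, from -0.58 to 0.76. Of these 11 (2.30%) were above 0.5, against 0.910% of all pairings of a member with a probe outside the set. The highest was UF_Ppr_AF_102158 beside AF_103124 (FJU.7074.C2). These probes were well above background on 1 and 3 arrays, so that r rests mostly on signals at background. The only members with adjacent spots, AF_108664 and AF_100352, had r = 0.03.

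Phenanthrene and control livers were then compared with limma on the whole table of 11492 probes that passed a filter on dim signal, with 6 group means in 1 fit and Benjamini-Hochberg adjustment over all of them. A probe passed if it was well above background on 3 or more arrays of at least 1 group, and 43 of the 49 members did, 3 of them through 1 group alone. Those 3, AF_100045, AF_101517 and AF_109657, stay in the counts and medians below. So does AF_119004, which passed through 2 control groups alone. At an adjusted p under 0.05, 0 members were called at 24 h, 48 h or 72 h or in the mean of the 3 times, and 0% of all probes were called in each of these. At an unadjusted p under 0.05, 0 members were called at 24 h against 2.45% of all probes, 1 member (2.33%) at 48 h against 4.25%, 1 member (2.33%) at 72 h against 5.26%, and 3 members (6.98%) in the mean against 4.79%. The median difference of exposed minus control over these members was 0.25 after 24 h, -0.37 after 48 h and -0.07 after 72 h, beside -0.08, -0.08 and -0.05 over all probes. The median SE of a difference was 1.75 to 1.85 log2 units at single times over the members, against 0.50 to 0.53 over all probes.

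At 48 h the member with the smallest p was AF_108364 (FJU.11761.C1). Exposed livers had 8.75, 5.65, -3.24, 6.59 and 5.71, and control livers had -3.37, -2.10, -0.78, 3.89 and -3.07. All but exposed replicate 3 were bright among exposed arrays and only replicate 4 among control arrays, and the groups overlapped. The difference was 5.78 ± 2.44 (SE), with an adjusted p of 0.953 in limma, while at 24 h exposed minus control was -3.35 ± 2.59 (SE) and at 72 h -0.23 ± 2.59 (SE). Without exposed 48 h replicate 1, an array with raised bright corners, the 48 h difference was 4.76. At 24 h exposed livers had -3.26, 3.19, -2.39, -3.55 and -3.25, and control livers had 5.56, 6.31, -2.50 and -3.36. The next smallest p at 48 h was that of AF_119004 (FJU.13418.C1). It passed the filter through the control 48 h and control 72 h groups alone, so its values are given with no test. At 48 h exposed livers had -6.56, 0.28, -8.57, -7.18 and -6.98, and control livers had -1.70, 1.31, -5.59, -7.11 and 2.29, and the groups overlapped.

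At 72 h it was AF_100566 (nd_SN_REV-F08.g), the member with as many arrays above its gap as below it. Exposed livers at 72 h had -1.59, -1.43, -1.97 and -6.98, all below the gap, and control livers had -3.56, 7.26, 4.997, 7.15 and -0.36, of which 3 were above, and the agents overlapped. The difference was -6.09 ± 2.90 (SE), with an adjusted p of 0.893 in limma. Without exposed 72 h replicate 4, an array with raised bright corners, it was -4.76. At 24 h exposed livers had 5.71, 7.22, -3.29, -3.44 and -5.18, and control livers 4.70, 4.53, -1.69 and 6.81. At 48 h exposed livers had -6.77, -3.72, 3.26, 6.38 and 4.82, and control livers 5.09, 6.44, -0.95, 3.98 and -1.97. Both agents stood on both sides at these times, and the mean of the 3 differences was -3.74 ± 1.64 (SE), with an adjusted p of 0.836 in limma. Without the 3 exposed arrays of uneven quality that mean was -2.37. AF_100045 (FJU.1751.C1) came next at 72 h, but it passed the filter through the exposed 72 h group alone, so its values are given with no test. At 72 h exposed livers had -1.25, -7.24, 1.66 and -0.07, and control livers had -6.29, 0.58, -6.46, -7.43 and -6.57, and the groups overlapped.

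At 24 h the smallest p-values belonged to AF_102205, with a difference of 3.16 ± 1.97 (SE), and AF_103285, with -2.59 ± 1.64 (SE), both with an adjusted p of 0.999 in limma. Without exposed 24 h replicate 4 the AF_103285 difference was -1.51. In the mean of the 3 times AF_106237 came first. Its level in exposed livers was 2.18, -2.30, -2.60, 1.40 and 1.16 on the 24 h arrays, 2.54, 2.35, -3.27, -3.62 and -2.53 on the 48 h arrays and 1.67, -1.79, -1.93 and 1.93 on the 72 h arrays. Its level in control livers was 2.25, 3.57, 2.44 and -1.98 on the 24 h arrays, -2.20, 1.14, 1.75, 1.74 and 2.80 on the 48 h arrays and 2.99, 2.26, 1.98, 2.34 and 3.02 on the 72 h arrays. At 72 h exposed livers were above the gap on 2 of 4 arrays and control livers on 5 of 5, and the highest exposed level, 1.93, lay just under the lowest control level, 1.98. At 24 h and 48 h the agents overlapped. The mean difference was -2.03 ± 0.78 (SE), with an adjusted p of 0.836 in limma.

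**Figure D5:**
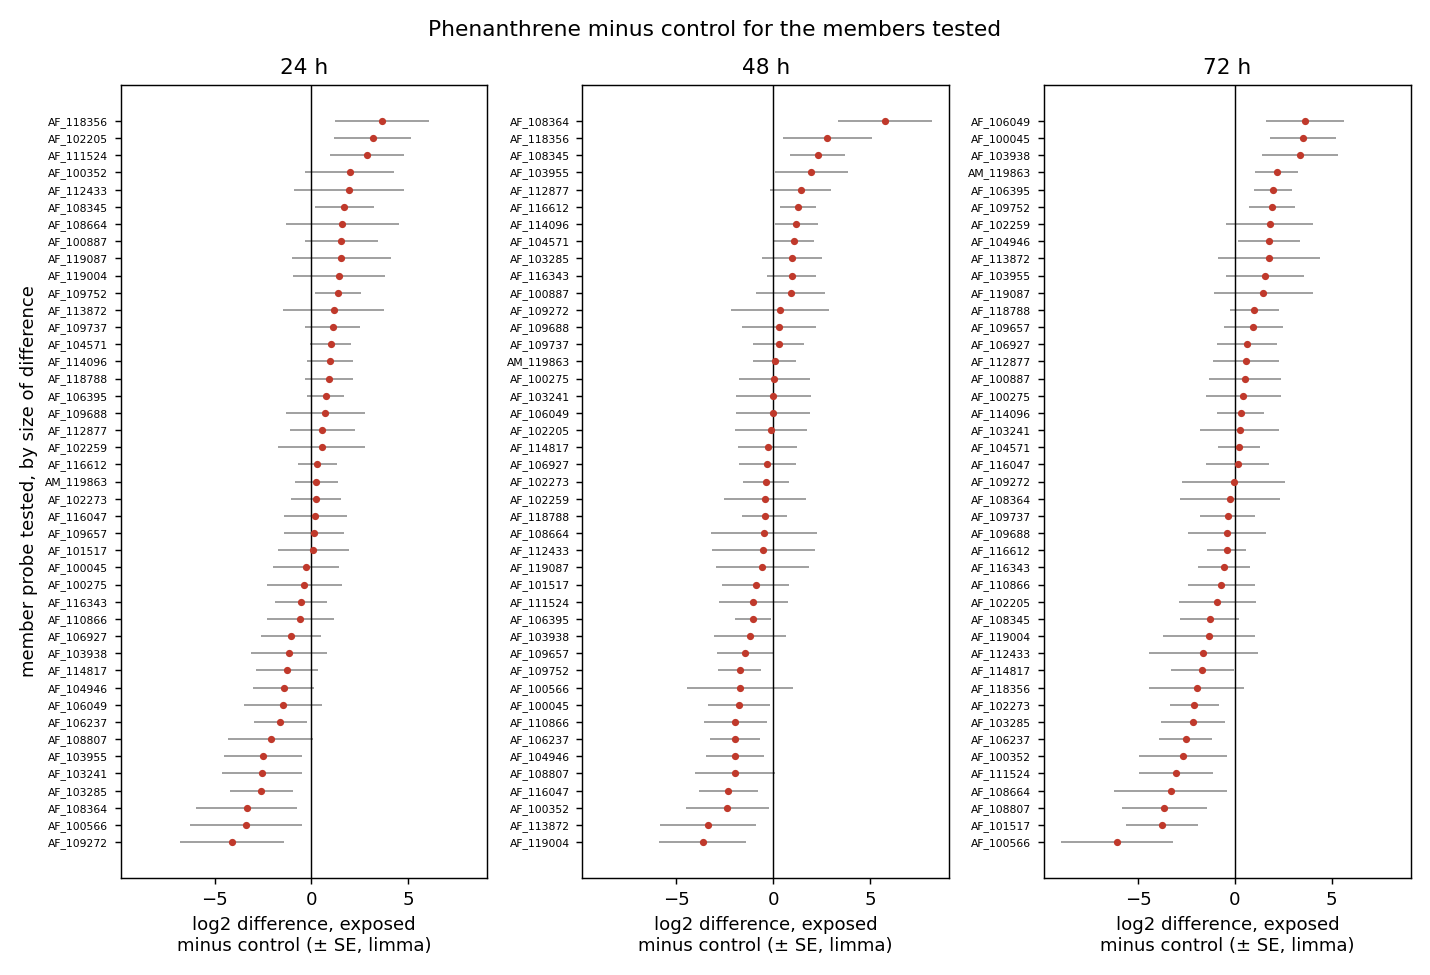
Log2 difference of exposed minus control (points) with its SE from limma (bars) for the 43 members tested at 24, 48 and 72 h, each panel sorted by size. Points lie on both sides of 0 at each time (26 of 43 above it after 24 h, 17 after 48 h and 21 after 72 h), and no member passed an adjusted p of 0.05. Of all 11492 probes tested, 43.0%, 43.4% and 46.2% were above 0 at these times. AF_100045, AF_101517 and AF_109657 passed the filter through 1 group alone and AF_119004 through 2 control groups alone, and all are in these counts.

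Time and slide were set against the same divisions. Slides 3 and 4 held 48 h arrays alone, and these were the 8 arrays of the first scan day. The time test had no term for slide, so time, slide and scan day are confounded in part. Across the 3 times, taken over both agents, 0 members passed the adjusted test, against 0.0174% of all probes, and 5 members (11.6%) had an unadjusted p under 0.05, against 11% of all probes. The lowest adjusted p was 0.287 in limma, for AF_108807, which had no bright array at 48 h among 10, and for AF_116343, whose dim arrays were all at 48 h. Slide, given group, called 0 members after adjustment, as it did 0% of all probes. Before adjustment it called 5 members (11.6%), against 5.02% of all probes. The 5 include the member with the smallest p for slide, AF_109657 (gi_72423051). It passed the filter through the control 48 h group alone, so its values are given with no test and the count of 5 is not read further. Its 3 bright arrays, exposed 48 h replicate 5 at 2.87, control 48 h replicate 1 at -0.36 and control 48 h replicate 3 at 0.53, lay on 3 slides, and its other arrays ran from -7.89 to -3.50. Without the 3 exposed arrays of uneven quality, 176 of 11492 probes (1.53%) were called for slide at an adjusted p under 0.05. Among the members only AF_109657 was, and its call carries no weight because of how it passed the filter. AF_108807 came next for slide over all arrays, with an adjusted p of 0.670 in limma.

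The divisions were also looked up in other processings of the same arrays. With quantile normalization all 49 members kept a gap above 0 between the same arrays. In the authors' deposited table of log2 values, 49 did over the arrays with a value and 46 kept 2 log2 units or more, with a median of 3.02. There 33 members had a value on all 28 arrays, and the others had none for exposed 24 h replicate 5. These others, AF_109272, AF_103241, AF_102205 and AF_112877 among them, were all dim on that array, so their gaps there lack a dim array. AF_116612 had only 3 dim arrays, so its gap there rests on fewer than the rule asks. With normexp background correction, which leaves an offset on dim spots, 47 members kept a gap above 0 and 15 kept 2 or more. The median gap was then 1.31. The exceptions were AF_119004 and AF_109688, for which the arrays on either side overlapped after that correction.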

How the data were processed

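Per the labels, total RNA was extracted with Trizol, labelled with Cy3 and hybridised to one-colour Agilent arrays. Per the file headers, the deposited scanner tables hold the linear intensity of each spot from Agilent Feature Extraction 10.7.1.1, whose processed signal is background-corrected and not scaled between arrays. The authors also deposited a table of log2 values, with no statement of its normalization in the sources used here. Against log2 processed signal its columns correlated at 0.994 or more, save 0.953 for exposed 24 h replicate 3, with slopes of 0.928 to 1.27. Medians were 4.96 to 5.42, save 6.98 for exposed 24 h replicate 5, which had values for only 10683 of 15208 probes. Scale and direction are thus settled and centring is not.

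The log2 processed signal was reduced by each array's 75th percentile over 15208 probes with 1 spot each. All values entered the rule for members, and 779 spots marked non-uniform or as population outliers were left out of the tests. Limma 3.58.1 in R 4.3.3 fitted 6 group means to 11492 probes (22 residual degrees of freedom), with F tests for time and for slide. Precision is limited by how many arrays there are. The fit and the rule for members were tested on simulated data. Python 3.11.15 with numpy 2.4.6 and pandas 2.3.3 did the rest.

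The members, lists and tests were chosen with earlier results of these data known. Named by rule are the 12 members with the widest gaps, the 2 with the smallest p in each of 6 comparisons, the 2 probes on either side of the threshold and the 3 probes most like the widest-gap member; no set of members shared all arrays above the gap. Alternatives were other gap widths and array numbers, quantile normalization, median scaling, normexp (offset 50, from median spot signals in place of the planned means, which were not used here), other filters, slide as a block, the authors' table and each array left out. Replicate numbers follow the order of deposit and pair nothing.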

Additional observations from a re-analysis of the deposited data

Results flagged for a closer look

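Among the members named by gap width or by a test, 108 sets of 4 or 5 arrays were examined for a single array far from the others of its group, counting the number of members above the gap as 1 further measure. In 28 sets (25.9%) 1 array stood apart, where chance gives about 1 in 20; the rule that chose the members picks for such gaps, so these counts carry no further weight. By agent, 13 of these arrays were exposed and 15 control.

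For AF_116343, exposed 48 h replicate 4 stood low at -7.27 and control 24 h replicate 3 high at 1.89. For AF_109272, exposed 48 h replicate 3 at -6.00, control 48 h replicate 2 at -7.11 and control 72 h replicate 5 at -6.84 stood low. AF_103241 was low on the same arrays, at -4.70, -3.82 and -3.11, and on exposed 24 h replicate 5 at -5.57. These arrays are those on which the pair shared its dim side.

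For AF_102205, exposed 24 h replicate 5 was low at -5.02 and control 24 h replicate 2 high at 0.65. For AF_103955, exposed 24 h replicate 1 at -5.11, control 48 h replicate 4 at -4.48 and control 72 h replicate 5 at -0.70 were low. For AF_103285, control 48 h replicate 3 at -5.66 and control 72 h replicate 1 at -5.32 were low. For AF_106335, exposed 24 h replicate 3 at -3.41, exposed 48 h replicate 2 at 1.46 and control 24 h replicate 2 at 1.19 were high; the first of these is the array with the fewest probes well above background.

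For AF_109924, control 48 h replicate 2 was high at 0.50. For AF_100566, exposed 72 h replicate 4, an array with raised bright corners, was low at -6.98. For AF_108364, exposed 24 h replicate 2 was high at 3.19 and exposed 48 h replicate 3 low at -3.24. For AF_119004, exposed 48 h replicate 2 at 0.28 and control 24 h replicate 2 at 1.44 were high. For AF_100045, control 48 h replicate 5 at -0.56 and control 72 h replicate 2 at 0.58 were high. For AF_109657, exposed 48 h replicate 5 was high at 2.87.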

How the results depend on the processing

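The number of members depended on the rule and the scaling: 110 at a gap of 1.5 log2 units, 21 at a gap of 3, 230 with 2 or more arrays on each side, 81 with quantile normalization (48 of the 49 among them), 81 in the authors' deposited table (45 among them) and 15 with normexp. It was 90 without the 3 exposed arrays of uneven quality, an alternative chosen after seeing the data, with 45 of the 49 among them. Leaving out each array gave 46 to 86; the 86 came without exposed 24 h replicate 3. In all, 33 members stayed whichever array was left out, since a side of 3 arrays falls under the rule when it loses 1. In 225 of 226 comparison settings 0 members were called at an adjusted p under 0.05. The exception was slide without the 3 arrays, where the 1 member called, AF_109657, had passed the filter through 1 group alone. For time the lowest adjusted p was 0.0521 in limma. Counts of members at an unadjusted p under 0.05 moved as follows. At 24 h it was 1 with normexp and 1 in the authors' table. At 72 h it was 0 with quantile normalization, 2 with median scaling, 4 with normexp, 2 with no filter, 3 with slide as a fixed block and 2 as a random block. In the mean of the 3 times it was 1 without the 3 arrays. For slide it was 3 with quantile normalization, 3 with normexp and 3 with the filter on 14 arrays. Over single arrays left out these counts ran from 0 to 1 at 24 h and 0 to 3 at 48 h. At 72 h they ran from 0 to 6 and in the mean from 1 to 3. For time they ran from 4 to 8 and for slide from 2 to 7. The share of all probes was not computed in these other settings, so the counts are not read further. The members tested include those that passed the filter through 1 group alone, and the cause of the changes was not tested. No named member changed the sign of its difference in any setting run, but 5 of them moved by over 1.5 times in 7 cases. Among these 5 were AF_100045 and AF_119004, which passed the filter through groups of 1 agent alone. Their differences carry no weight and are not given. With normexp, AF_102205 at 24 h was 1.785 in place of 3.16 and AF_103285 at 24 h -1.05 in place of -2.59. AF_103285 was -1.51 without exposed 24 h replicate 4, and the mean for AF_100566 was -2.37, in place of -3.74, without the 3 arrays. Signals at background limit what the lower side of a gap can show. No paired analysis was possible because replicate numbers follow the order of deposit.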

Other observations

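Several members not described above stood far over the array's 75th percentile on some arrays and near or under it on others, and were chosen for mention after their values were seen. AF_118356 (FJU_SB_30.13.C1) ran from -3.05 to 10.78 in exposed livers with a median of 7.75, and from -0.21 to 10.13 in control livers with a median of 3.14. It was above its gap on 8 exposed and 4 control arrays, and all 16 arrays below the gap were well above background. AF_119087 (FJU.256.C1) ran from -4.84 to 9.10 in exposed livers with a median of 6.05, and from -3.60 to 8.26 in control livers with a median of 5.64. AF_112433 (FJU.491.C1) ran from -6.91 to 8.38 in exposed livers with a median of 6.20, and from -1.92 to 8.56 in control livers with a median of 5.66. In each of these members the levels of the agents overlapped. The lowest level was on exposed 72 h replicate 4 for AF_118356 and AF_112433, and on exposed 48 h replicate 1 for AF_119087. The highest level was on exposed 48 h replicate 1 for AF_118356 and on exposed 72 h replicate 4 for AF_119087. For AF_112433 the highest exposed level was on exposed 72 h replicate 2. Exposed 48 h replicate 1 and exposed 72 h replicate 4 are the arrays with the raised bright corners and the most non-uniform spots. The part of that in these levels was not tested.

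AF_109752 (FJU.796.C2) was well above background on all 28 arrays. It stood at 6.17 on exposed 24 h replicate 4, 8.84 on exposed 72 h replicate 4 and 7.10 on control 48 h replicate 2, against -0.34 to 3.88 on the other 25. Exposed 72 h replicate 4 is an array with raised bright corners. Without it the bright side of AF_109752 falls under the 3 arrays of the rule. AF_108664 (FJU.1239.C1) ran from -6.85 to 5.58 in exposed livers and from -7.56 to 5.60 in control livers, with 7 exposed and 9 control arrays above its gap. Control 24 h replicate 2 was above the gap for 34 members and control 24 h replicate 3 for 19, the extremes over all arrays within 1 group of 4.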
